A study of Mus musculus with 14 samples.

Results

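The 8 genes described here mark lung macrophages and the complement protein that macrophages make. They are C1qa, C1qb, C1qc, C3ar1, Ms4a7 and Spp1, taken as genes of interstitial and monocyte-derived macrophages, and Chil3 and Fabp1, taken as genes of alveolar macrophages. They were picked by name from 3956 genes that the authors' deposited table lists for Kmt2a knockout against wild-type mouse lung, and their values in that comparison were known when they were picked. Their levels in it are therefore given as a description, with no test. None of the 8 has a row among the 772 genes of the second deposited table, Men1 knockout against wild type, so they have no value there.

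The series holds 14 libraries of total RNA labelled as mouse lung: 3 of Kmt2a KO and 3 of WT mice, used here, and 4 of Men1 KO and 4 of their WT mice. Kmt2a encodes the histone methyltransferase MLL, and the table names the knockout after it. The labels give no age, sex, strain, allele or driver of the deletion. Which libraries make up its wild-type column is not written in the table, and they are treated here as the WT mice of the Kmt2a comparison. Tissue and source say lung, although the protocol for extraction speaks of peritoneal cavity macrophages. The wild-type column holds a mean of 26526 normalized counts of Sftpa1, a surfactant protein gene of alveolar type 2 cells, and 23566 of Ager, a gene of alveolar type 1 cells. Of 16 listed markers of peritoneal macrophages, 14, the defining factor gene Gata6 among them, have no row. The Kmt2a table holds only genes past the authors' threshold, so a missing row does not show a missing transcript. The 2 with a row, Tgfb2 and Lrg1, were higher in the knockout (log2 ratios 0.81 and 2.45). Kmt2a has no row either, so it is not among the genes past the threshold, and the knockout could not be checked on its own gene.

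The lung holds several kinds of macrophage. Alveolar macrophages live in the airspace and clear surfactant, while interstitial and monocyte-derived macrophages lie in the tissue walls. C1q is the recognition part of the first complement component: it is built from A, B and C chains, binds antibody complexes and dying cells, and starts the classical pathway through the proteases C1r and C1s. Unlike most complement proteins, which the liver makes, C1q comes mainly from macrophages and related cells.

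The deposited table gives 1 mean of normalized counts per group, and all its genes passed the threshold of 0.05 on the adjusted p. The means carry 15 significant digits, from which the whole reads of the 3 libraries behind each mean were recovered. Letters a, b and c stand for the recovered libraries of a group. They cannot be tied to a mouse, and library a of one group has nothing to do with library a of the other. Reads of all 6 libraries were recovered for 7 of the 8 genes. For Chil3 only the wild-type reads were, as 2 sets of reads match its knockout mean.

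The 3 C1q chain genes were higher in the knockout in every library. C1qa, which encodes the A chain, stood at 3232, 2798 and 2214 normalized counts in knockout libraries a, b and c and at 1269, 457 and 1020 in wild-type libraries a, b and c. C1qb, for the B chain, stood at 1869, 1514 and 1243 against 562, 212 and 398. C1qc, for the C chain, stood at 2269, 1928 and 1427 against 662, 347 and 604. All 3 chains were highest in wild-type library a and lowest in b, and the lowest knockout library lay above the highest wild-type one for each.

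As means ± SD over 3 recovered libraries, C1qa stood at 2748 ± 511 in the knockout and 916 ± 416 in the wild type, a fold of 3.00 and a log2 ratio of 1.59. C1qb stood at 1542 ± 314 and 391 ± 175, a fold of 3.95 and a log2 ratio of 1.98. C1qc stood at 1875 ± 423 and 538 ± 168, a fold of 3.49 and a log2 ratio of 1.80. Groups did not overlap in 3713 of the 3822 genes with reads of all 6 libraries (97.1%), all selected on these libraries, so the absence of overlap says nothing particular about C1q. In bulk lung RNA, more cells of a type and more RNA per cell cannot be told apart.

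**Figure D1:**
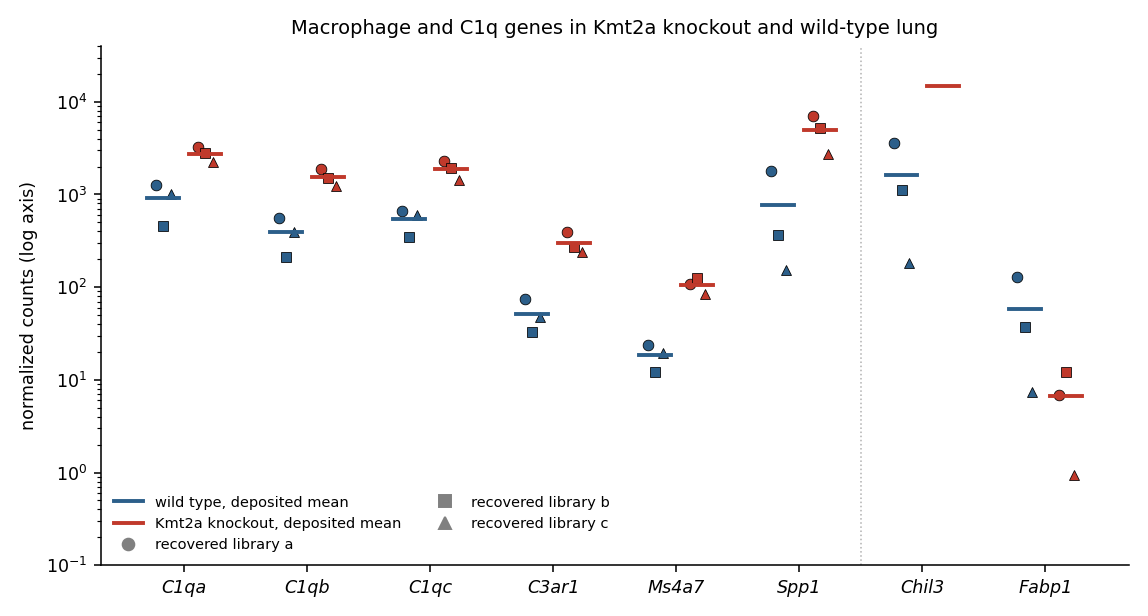
Normalized counts (log axis) of the 8 genes in wild-type (blue) and Kmt2a knockout (red) lung. Points are recovered libraries a, b and c and horizontal lines the deposited means; Chil3 has no points in the knockout. The 6 genes left of the dotted line are higher in every knockout library, while the Fabp1 groups overlap.

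The C1q genes lie side by side on chromosome 4 of GRCm38, all on the minus strand. C1qb spans 136880129 to 136886187, C1qc 136889804 to 136893065 and C1qa 136895917 to 136898803, so the cluster is 18.7 kb long. The other protein-coding genes within 250 kb of a chain gene, Lactbl1, Ephb2, Epha8 and Zbtb40, have no row in the table. Like the other 5 members, the 3 chain genes have the same coordinates in GENCODE M21, and no other annotated gene overlaps them.

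Sequences upstream of the start sites are shown for C1qb and C1qc, which share the cluster, for C3ar1, whose libraries ranked as theirs did, and for Chil3 as a gene of the other macrophage type. They are RefSeq promoter windows of GRCm38.p6, read 5′ to 3′ on the gene's strand and without bases inside the gene as the table gives it. Capitals mark matches on either strand to 4 motifs: GAGGAA, the core bound by the myeloid factor PU.1; TGCTGA, the core bound by the MAF family of factors; TGACTCA, the AP-1 site; and TATAAA, the TATA box. RefSeq windows were found for 7 of the 8 genes.
C1qb, chr4:136886201-136886450, minus strand: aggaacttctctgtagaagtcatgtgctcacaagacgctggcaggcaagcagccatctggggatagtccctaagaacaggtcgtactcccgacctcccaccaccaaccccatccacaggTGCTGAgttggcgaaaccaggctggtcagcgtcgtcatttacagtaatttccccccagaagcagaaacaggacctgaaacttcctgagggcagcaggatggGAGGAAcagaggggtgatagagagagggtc
C1qc, chr4:136893066-136893164, minus strand: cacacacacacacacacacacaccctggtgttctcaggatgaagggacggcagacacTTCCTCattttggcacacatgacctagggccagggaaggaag
C3ar1, chr6:122856162-122856407, minus strand: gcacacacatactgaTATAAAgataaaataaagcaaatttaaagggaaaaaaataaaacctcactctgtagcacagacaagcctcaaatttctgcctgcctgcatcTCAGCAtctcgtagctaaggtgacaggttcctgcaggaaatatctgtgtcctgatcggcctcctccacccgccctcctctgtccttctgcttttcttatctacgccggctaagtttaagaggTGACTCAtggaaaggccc
Chil3, chr3:106167565-106167814, minus strand: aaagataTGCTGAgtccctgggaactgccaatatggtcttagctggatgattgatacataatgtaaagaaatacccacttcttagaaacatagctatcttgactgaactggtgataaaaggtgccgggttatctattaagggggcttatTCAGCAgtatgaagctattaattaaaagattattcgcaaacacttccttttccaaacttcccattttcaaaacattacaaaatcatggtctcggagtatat

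In the 250 bases upstream, GAGGAA or its reverse complement was found for C1qb, C1qc, Spp1 and Fabp1, and in 23.3% of all 32851 RefSeq windows of that length. TGCTGA was found for C1qb, C3ar1, Chil3 and Fabp1, and in 16.1% of all windows. TATAAA was found for C3ar1, Spp1 and Fabp1 (12.4% of all windows), and TGACTCA for C3ar1 (4.46%). No base belonged to more than 1 match, and none of the 4 was found for Ms4a7. These are matches of letters and show no binding.

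By their means the chains rose by different factors, a difference that was not tested. Per kb of gene length, the C1qa level was 1.81, 1.93 and 1.86 times that of C1qb in knockout libraries a, b and c, and 2.36, 2.26 and 2.68 times in the wild-type libraries. The ratio was lower in every knockout library than in any wild-type library. C1qa over C1qc per kb ran from 2.65 to 2.88 in the knockout and from 2.45 to 3.56 in the wild type, and C1qb over C1qc from 1.39 to 1.55 and from 1.08 to 1.51, so these ratios overlapped between groups. Summed per kb over the chains, C1qb made up 27.4% to 28.6% in the knockout and 22.0% to 24.8% in the wild type. C1qa had the highest level per kb of the chains in all 6 libraries, followed by C1qb and then C1qc. Without division by length, C1qb over C1qc ran from 0.610 to 0.871, so the order of these chains rests on the gene lengths used.

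**Figure D2:**
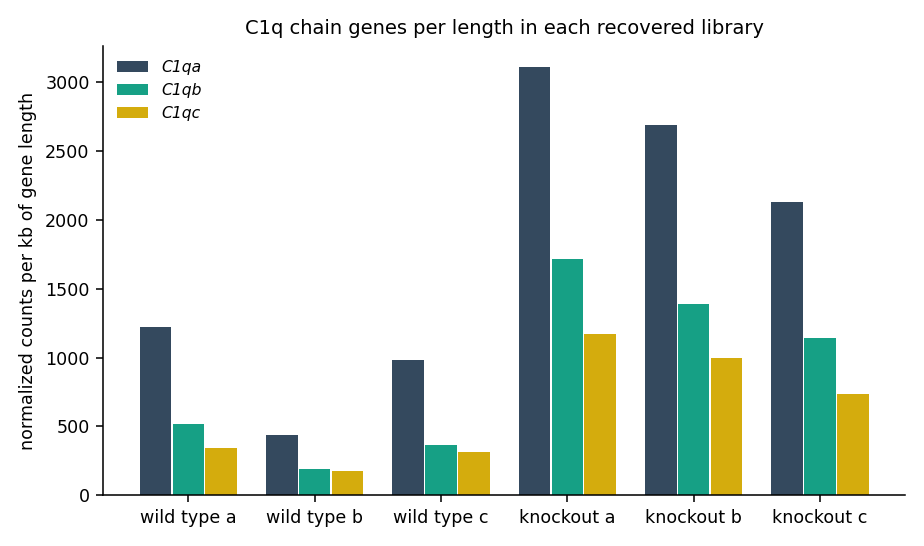
Normalized counts per kb of gene length of C1qa, C1qb and C1qc in each recovered wild-type and knockout library. Bars start at 0; in all 6 libraries C1qa is the tallest, and the wild type is lowest in library b.

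C3ar1 and Ms4a7 had larger log2 ratios than the C1q genes, a difference that was not tested. C3ar1 encodes the receptor for the complement fragment C3a. It stood at 391, 274 and 238 normalized counts in knockout libraries a, b and c and at 73.9, 33.1 and 47.7 in the wild type. Ms4a7, a membrane protein gene of the tetraspan MS4A family found in macrophages, stood at 108, 125 and 84.0 against 23.9, 12.1 and 19.6. The lowest knockout library was 3.22 times the highest wild-type library for C3ar1 and 3.51 times for Ms4a7. For C1qa, C1qb and C1qc it was 1.74, 2.21 and 2.15 times. The means were 301 ± 80.2 and 51.6 ± 20.7 for C3ar1 (SD, n = 3 recovered libraries), a log2 ratio of 2.54. They were 106 ± 20.6 and 18.6 ± 5.98 for Ms4a7, a log2 ratio of 2.51. The wild-type values of Ms4a7 rest on 23, 11 and 16 reads.

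Spp1 encodes osteopontin, a secreted phosphoprotein of matrix and of macrophages in injured tissue. It stood at 6981, 5165 and 2740 normalized counts in the knockout and at 1775, 363 and 152 in the wild type. The groups did not overlap, yet wild-type library a lay 11.7 times above library c. The means were 4962 ± 2128 and 763 ± 883, a log2 ratio of 2.70, and leaving out wild-type library a gave 4.27. Its adjusted p of 0.0476 in the authors' deposited table was the closest to the threshold of the 8, while C3ar1 had the lowest, 2.76e-10.

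The alveolar macrophage genes went opposite ways. Chil3 encodes the chitinase-like protein Ym1, which alveolar macrophages secrete. Its deposited mean was 14877 normalized counts in the knockout, against 3590, 1113 and 184 in wild-type libraries a, b and c, a log2 ratio of 3.19. In both sets of reads that match the knockout mean, every knockout library lay above the highest wild-type library, the lowest value being 6214. Leaving out wild-type library a gave 4.52. Chil3 has closely similar neighbours such as Chil4, and how the authors' counting treated reads shared between them is not given in the sources used here.

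Fabp1, a fatty acid binding protein gene of liver that mouse alveolar macrophages also carry, was the one member with the lower mean in the knockout. It stood at 6.80, 12.2 and 0.93 normalized counts in the knockout, from 8, 14 and 1 reads. In the wild type it stood at 129, 37.5 and 7.35, from 124, 34 and 6 reads. The groups overlapped, since knockout library b lay above wild-type library c. The log2 ratio was −3.12, and it was −1.75 without wild-type library a and −3.91 without knockout library b. The other 10 of 11 listed hepatocyte genes have no row in the table, which holds only genes past the threshold, so their levels are not known.

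The wild-type libraries ranked the 8 genes in 2 ways. C1qa, C1qb, C1qc, C3ar1 and Ms4a7 were highest in library a, then c, then b, an order found in 604 of the 3878 genes with wild-type reads (15.6%). Spp1, Chil3 and Fabp1 were highest in a, then b, then c, as in 705 of these genes (18.2%). Among listed genes with wild-type reads, this second order held for all 6 general macrophage genes. It held for 5 of 6 alveolar type 1, 5 of 8 alveolar type 2 and 5 of 15 alveolar macrophage genes, so it is not particular to alveolar macrophage genes. As shares of the wild-type mean, Spp1, Chil3 and Fabp1 in turn stood at 2.33, 2.20 and 2.23 in library a, at 0.475, 0.683 and 0.646 in b, and at 0.199, 0.113 and 0.127 in c. Chil3 and Fabp1 lay closer to each other than to Spp1 in all 3 libraries. Per kb, Chil3 stood at 9.42, 10.1 and 8.47 times Fabp1 in wild-type libraries a, b and c, while Chil3 lay 19.6 times and Fabp1 17.6 times higher in a than in c. By the knockout means that ratio was 757. Fabp1 rests on only 6 reads in wild-type library c and on 8, 14 and 1 reads in the knockout, so these ratios are uncertain. Chil3 over Spp1 per kb was less even, at 2.04, 3.10 and 1.22 in the wild-type libraries, and 3.03 by the knockout means. This grouping by order was chosen after the values were seen.

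**Figure D3:**
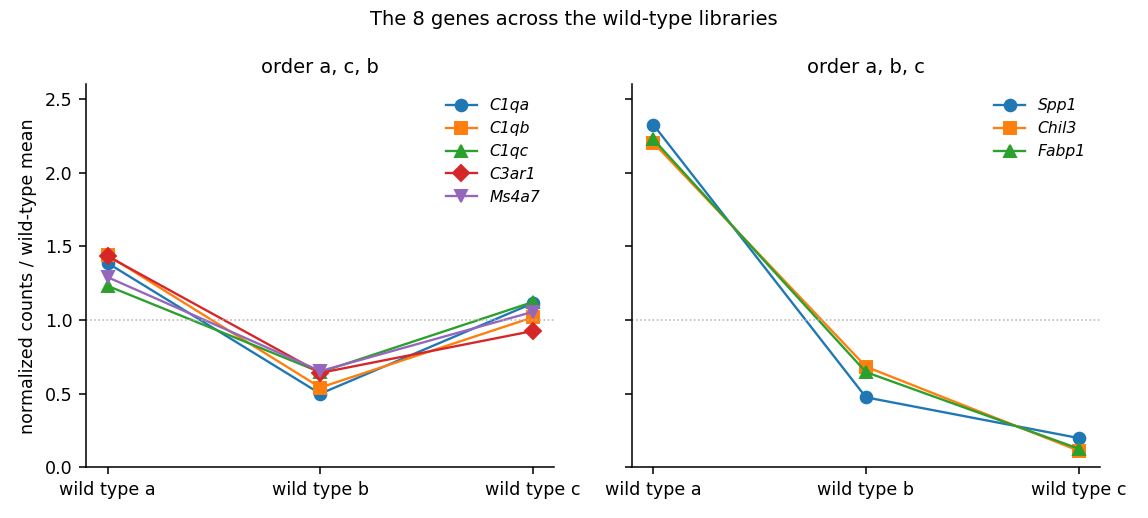
Normalized counts of the 8 genes in wild-type libraries a, b and c, divided by the wild-type mean of the gene. The 5 genes on the left are lowest in library b, at 0.653 of the mean or less, while Spp1, Chil3 and Fabp1 on the right are lowest in library c, at 0.113 to 0.199.

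The 6 general macrophage genes with reads of all libraries were lowest in wild-type library c, as Spp1, Chil3 and Fabp1 were. The C1q genes were lowest in b. Libraries a and b were nearly level for Adgre1 (230 and 229), Cd68 (449.8 and 449.7) and Fcer1g (362 and 357). The 6 genes were Adgre1, the gene of the F4/80 antigen, Cd68, the Fc receptor genes Fcgr3 and Fcer1g, Ctss and Lgals3. All 6 passed the authors' threshold in this same comparison and were higher in the knockout. Another 13 of the 20 listed general macrophage genes have no row. Division by these 6 is therefore no independent measure of macrophage content. Their geometric mean per kb was 458, 382 and 161 in the wild type and 1252, 868 and 734 in the knockout. Divided by it, the C1q chains stood at 1.31, 0.652 and 3.00 in wild-type libraries a, b and c and at 1.47, 1.79 and 1.66 in the knockout, so the groups overlapped on this scale. C3ar1 stood at 0.0375, 0.0201 and 0.0690 against 0.0726, 0.0732 and 0.0753. These did not overlap, but wild-type library c, where the divisor was lowest, lay close to knockout library a. Ms4a7 and Spp1 overlapped, from 0.00714 to 0.0274 against 0.0194 to 0.0323 and from 0.573 to 2.35 against 2.26 to 3.61. Fabp1 stood at 0.509, 0.178 and 0.0827 against 0.00982, 0.0255 and 0.00230, without overlap. Before this division its groups overlapped, and the divisor was higher in every knockout library than in any wild-type one. How many other genes separate on this scale was not counted, so the separation says nothing particular about C3ar1 or Fabp1.

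**Figure D4:**
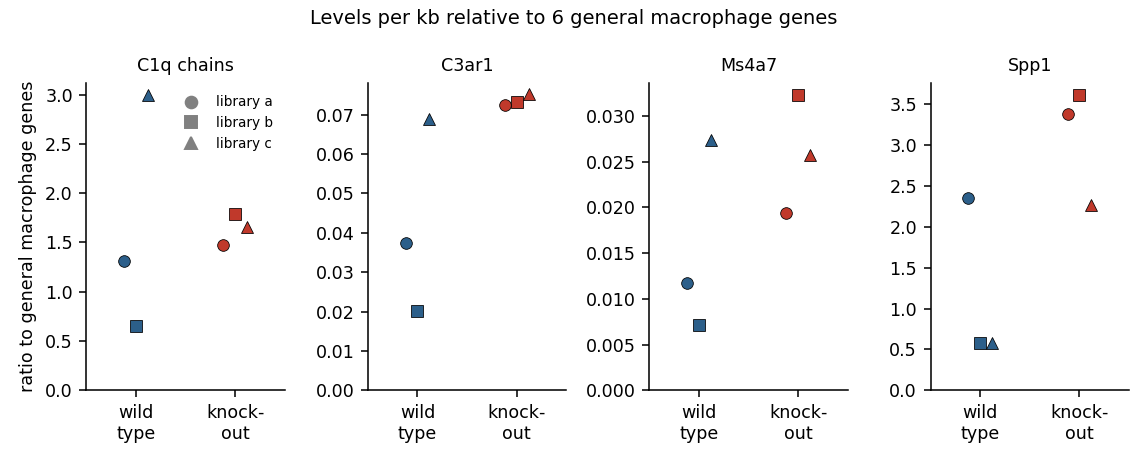
Level per kb of the C1q chains (geometric mean), C3ar1, Ms4a7 and Spp1 divided by the geometric mean per kb of 6 general macrophage genes, in wild-type (blue) and knockout (red) libraries a, b and c. Each panel has its own axis from 0. All 6 general macrophage genes passed the authors' threshold in this same comparison and were higher in the knockout. The knockout C1q ratios, 1.47 to 1.79, lie inside the wild-type range of 0.652 to 3.00.

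Beyond the members, the lists of macrophage markers held mostly higher genes, while the list of growth factors and transcription factors held more lower ones. Of 40 listed genes of interstitial and monocyte-derived macrophages, 14 have a row, 13 higher and 1 lower, with a median log2 ratio of 1.63. Of all 3956 genes, 50.5% were higher and 49.5% lower, with a median log2 ratio of 0.31. Without the 6 members, 7 of 8 were higher, with a median of 1.09: among them the lipid receptor gene Trem2 (1.76), the Fc receptor-like gene Fcrls (1.68) and the membrane glycoprotein gene Gpnmb (1.31). Cbr2 was lower (−0.93), with means of 109612 and 209440 normalized counts. It encodes a carbonyl reductase that lung epithelium also makes.

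Of 34 listed alveolar macrophage genes, 15 have a row, 10 higher and 5 lower, with a median log2 ratio of 0.73. Higher besides Chil3 were Fabp5 (2.22), the protease gene Ctsk (1.64), the proton pump subunit gene Atp6v0d2 and the mannose receptor gene Mrc1 (1.42). Lower besides Fabp1 were Fabp4 (−1.94) and the factor gene Bhlhe41 (−0.90). Pparg, the factor that alveolar macrophages need to develop, was also lower (−0.50). Marco, Siglecf, Car4 and Ear2 have no row. Fabp4 stood at 2528 normalized counts in wild-type library a and at 310 and 432 in b and c, of which b lies inside the knockout range of 210 to 376 and c above it.

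All 7 general macrophage genes with a row, of 20 listed, were higher, with a median log2 ratio of 1.70. So were all 11 with a row of 15 listed genes of lipid-associated macrophages, with a median of 1.13. These include the member Spp1, and without it 10 of 10 were higher. Higher too were 7 of the 8 Fc and phagocytic receptor genes with a row. In the last list Fcgr3 stood at 2.16, the lectin gene Clec4n at 1.90 and Fcgr2b at 1.55, while Cd209a, a gene of dendritic cells, stood at −1.55. At least 2-fold higher were 910 genes of the whole table (23.0%), and all 7 of the general macrophage genes. The lists share genes, so their counts are not separate results. Trem2 is in the interstitial, lipid-associated and Fc receptor lists. Lgals3 is in the general and lipid-associated lists, and Fcgr3 in the general and Fc receptor lists.

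Of 22 listed growth factor, receptor and transcription factor genes of macrophages, 8 have a row, 3 higher and 5 lower, with a median log2 ratio of −0.58. Lower, besides Pparg and Bhlhe41, were the immediate early factor gene Egr2 (−1.54), the zinc finger factor gene Klf4 (−1.18) and Cebpb (−0.65). Higher were the related factor gene Cebpa (1.09) and the TGF-beta receptor gene Tgfbr2 (0.99). Of 17 listed monocyte genes, Nr4a1 and Chil3 have a row. Nr4a1, an orphan nuclear receptor gene that patrolling monocytes need and that many cells induce on stimulation, was lower (−3.32), with means of 1560 and 15554 normalized counts.

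**Figure D5:**
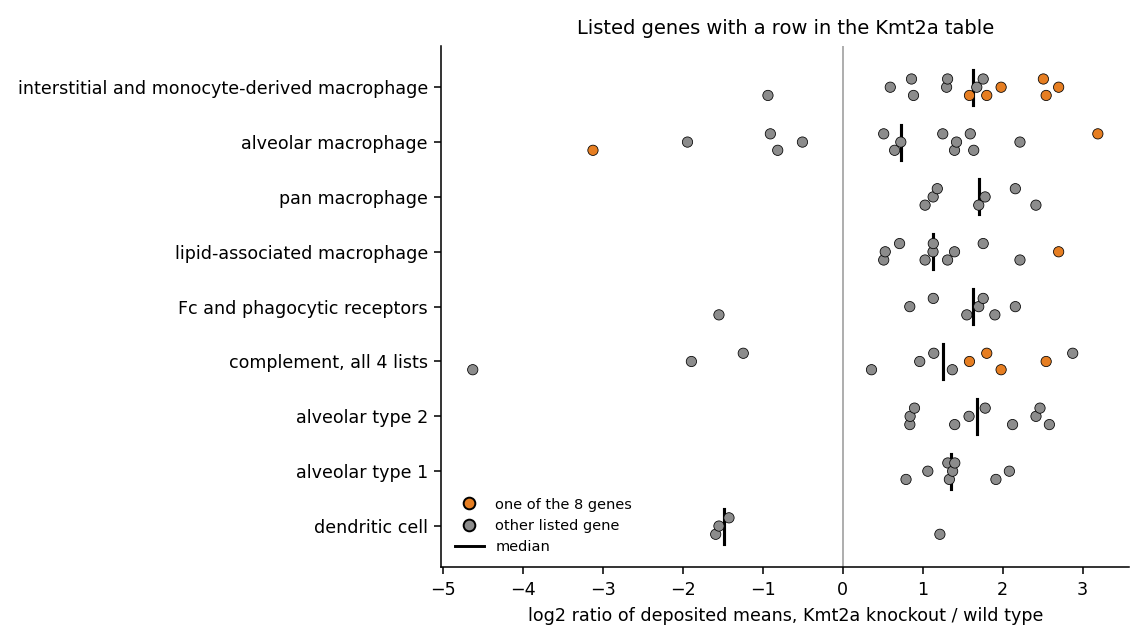
Log2 ratio of deposited means, Kmt2a knockout over wild type, for listed genes with a row in the table. Each point is a gene, orange for the 8 genes described here, and black bars are medians: 1.63 for the interstitial list and 0.73 for the alveolar macrophage list. Vertical offsets within a list only separate the points. Some genes appear in several lists.

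The complement genes outside C1q and C3ar1 did not move together. Of 50 listed complement genes 12 have a row, 9 higher and 3 lower, and without the 4 members 5 of 8 were higher. C3, the central component, had means of 23852 and 10828 normalized counts (log2 ratio 1.14), and the C3b-cleaving protease gene Cfi stood at 1.37. Of the inhibitors, C4bp stood at 2.88, on means of 13.9 and 1.90, and the membrane inhibitor gene Cd59a at 0.96. Lower were the lectin pathway protease gene Masp2 (−4.63, from 64.9 to 2.63), Cd55b (−1.89) and C4a (−1.24). The genes of the C1r and C1s proteases, C1ra, C1rb, C1s1 and C1s2, have no row, nor do C2 and C4b. Of the receptors, only C3ar1 and the C1q-binding chaperone gene Calr have a row; Calr stood at 0.36, below the median protein-coding gene (0.43), and C5ar1, C5ar2, Itgam and Vsig4 have none.

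Relatives of the other members also differed in direction. Of 21 Ms4a genes, Ms4a7 and Ms4a15 have a row, and Ms4a15 was lower (−2.95, from 20.7 to 2.67). None of the 15 other protein-coding genes within 250 kb of Ms4a7 has a row. Among 8 chitinase and chitinase-like genes, Chil1 was higher (4.45) and Chia1, which lies within 250 kb of Chil3, was lower (−2.71). Of the osteopontin receptors, the hyaluronan and osteopontin receptor gene Cd44 was higher (1.18), as was the integrin gene Itgav (0.56), and Itga5 was lower (−0.51). Smyd1, a muscle gene within 250 kb of Fabp1, was lower (−2.54), with means of 70.3 and 409.

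By correlation with the mean of the C1q chains over the 6 recovered libraries (log2 of normalized counts with 1 added), the 10 most similar of 2693 genes were, in order, Hcar2, Sulf2, Pex14, Surf4, Arhgef38, Fzd6, Tpbgl, Nipa1, Scamp1 and C3ar1. Only genes with reads of all 6 libraries and both group means of at least 50 were ranked. Ms4a7, Chil3 and Fabp1 were therefore left out. Pearson's r ran from 0.997 for Hcar2 to 0.984 for C3ar1. Hcar2, the receptor for nicotinic acid and ketone bodies, stood at 338, 264 and 244 normalized counts in the knockout and at 131, 57.3 and 99.2 in the wild type. Being higher in the knockout follows from this choice, since the C1q genes were higher in every knockout library, and all points share the same 6 libraries and their scaling. With each group mean subtracted, r was 0.984 for Hcar2, 0.934 for C3ar1 and 0.486 for Spp1. For the 6 general macrophage genes it ran from −0.141 for Adgre1 to 0.384 for Ctss.

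Genes of other cell types moved in the same libraries. All 10 alveolar type 2 genes with a row, of 13 listed, were higher in the knockout, and so were all 8 alveolar type 1 genes, of 10 listed. Over the 5 type 2 genes with reads of all libraries, summed normalized counts ran from 33429 to 37685 in the knockout and from 11405 (library c) to 19591 (library a) in the wild type. Over 4 type 1 genes they ran from 23051 to 24007 and from 4769 (c) to 10013 (a). Of 15 neutrophil genes, Ltf (4.26) and Lcn2 (4.30), which airway epithelium also makes, were higher and Mpo was lower, with 1, 0 and 0 reads in knockout libraries a, b and c and 8, 6 and 3 in the wild type. Of 13 dendritic cell genes, 3 of the 4 with a row were lower, with a median log2 ratio of −1.48. None of the listed B cell (8), T and NK cell (11) or endothelial (9) genes has a row. The part of these cell types in the levels of the 8 genes was not tested.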

How the data were processed

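Per the submitters' processing notes, the tools were DESeq2 1.16.1, HISAT2 2.0.5 and featureCounts 1.5.0-p3 and the builds GRCm38 and mm10, with no roles given. For Kmt2a the authors deposited group means of normalized counts (a signal), their log2 fold change, p-value and adjusted p-value, and only genes past 0.05. The deposited Men1 table holds raw counts and normalized counts per library; it was used only to look for the genes, and 2 of its columns match no sample. As both tables hold selected genes, no new test across genes was made, and the authors' adjusted p (threshold 0.05) is the call.

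Each Kmt2a mean adds up the reads of 3 libraries, where 1 read adds a fixed step set by the library. The steps came from genes with few reads, and each mean up to 10000 was searched for whole reads that match all its digits (Python 3.11.15, numba 0.67.0); members were searched up to 20000. Exactly 1 set was found for 3853 of 3854 knockout and all 3878 wild-type means. The search was tested on simulated data. Size factors ran from 0.817 to 1.18; the total depth of the libraries is unknown. Nothing says whether replicates were separate animals beyond their labels.

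Log2 ratios are of deposited means, with no pseudocount. Levels of different genes were compared per kb of the deposited gene length. The kit keeps no strand. The named genes are the 8 members, up to 6 genes a list by size of log2 ratio, and the 10 most like the C1q genes; Cbr2, Cebpb, Fcrls, Lgals3, Mrc1, Pparg, Sftpa1, Ager, Smyd1 and the genes named as having no row fall outside this rule, picked with their values known. Members, lists and rules were chosen with earlier results of these data known.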

Additional observations from a re-analysis of the deposited data

How the results depend on the processing

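With a pseudocount of 1 or 10, relative to the median protein-coding gene (log2 ratio 0.43), or without any of the recovered libraries, all 8 genes kept their direction. Leaving out a library in turn gave log2 ratios of 1.26 to 1.90 for C1qa, 1.68 to 2.34 for C1qb, 1.57 to 1.98 for C1qc, 2.31 to 2.90 for C3ar1, 2.28 to 2.74 for Ms4a7, 2.21 to 4.27 for Spp1, 2.66 to 4.52 for Chil3 (wild-type libraries only) and −3.91 to −1.75 for Fabp1. The counts of higher and lower genes in the interstitial, alveolar macrophage and complement lists stayed within 1.5 times under these settings. With an average of both group means of at least 50 required, 0 complement genes were lower instead of 3, since all 3 lie below it, and Fabp1 is left out.

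Without division by length, C1qa over C1qb was 1.78 in the knockout, C1qa over C1qc 1.47 in the knockout and 1.70 in the wild type, and C1qb over C1qc 0.823 and 0.726. C1qc then stood above C1qb, the reverse of their order per kb. With each group mean subtracted, 1 of the 10 genes most like C1q, Hcar2, was again among the first 10. No paired analysis was possible because the groups share no replicate numbers and the deposited columns are group means. Fabp1, Chil3 and Spp1 varied most between wild-type libraries, with SDs of 2.07, 2.16 and 1.80 on the log2 scale, against 0.504 to 0.775 for the other members.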
